A study of Mus musculus with 24 samples.

Results

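The added loss of Etv1, Etv4 and Etv5 was examined in mouse islets that already lacked Cop1 in their β cells. The comparison comprised 7 of the 24 libraries of the study: 3 labelled as Cop1 deletion and 4 labelled as deletion of Cop1, Etv1, Etv4 and Etv5. They were chosen by the sample number in their titles, which divides the study into 2 sets of libraries, here called set 1 and set 2. All 7 belong to set 1, and 1 number that stands in 2 titles was left out with its libraries. Genes with at least 1 RPKM (read counts normalised for gene length and sequencing depth) in at least 3 of the 7 libraries were tested, which kept 13654 of 28059 genes. The 3 Cop1 libraries carried Cop1 fl/fl and Pdx1.CreERT2. The 4 Etv1/4/5 libraries carried Etv1fl/fl, Etv5fl/fl and Etv4ko/ko in addition to Cop1fl/fl and Pdx1.CreERT2, so both groups shared the floxed Cop1 alleles and the Cre. Pdx1.CreERT2 is a tamoxifen-activated recombinase under the promoter of Pdx1, a gene active in β cells and δ cells of the adult islet. Etv4 is marked as a knockout in the genotype, with no Cre-dependent allele, so it was absent by design from every cell of these animals and not from β cells alone. The 3 control libraries of set 1 carried Cop1 fl/fl without Cre and are given as a reference beside the comparison. Mice of all groups had a mixed background and an age of 3-4 months, and whole islets were cultured and then picked by hand, so that each library holds RNA of every islet cell type. The labels do not relate libraries to single mice, and p-values measure only the spread between these libraries.

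COP1 is the substrate-binding part of an E3 ubiquitin ligase that marks the PEA3 group of ETS transcription factors, ETV1, ETV4 and ETV5, and the AP-1 factor c-JUN for degradation by the proteasome. Loss of COP1 stabilises these proteins, so their activity can rise without a rise of their mRNA. ETS factors bind a GGAA core in promoters and enhancers and act downstream of growth factor and ERK signalling. In adult islets, β cells are known for insulin synthesis, glucose uptake through GLUT2, and calcium-driven exocytosis of insulin granules. The comparison asks which transcripts of Cop1-deficient islets differ once the 3 ETV genes are also deleted.

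The 7 libraries were close in depth, at 0.704 to 0.805 of the deepest library of set 1. Between libraries of the same group the median Spearman correlation was 0.99 over 9 pairs, and between the groups it was 0.979 over 12 pairs. The β-cell markers Ins1 and Ins2 accounted for 31.5% to 34.5% of the summed RPKM in the Cop1 libraries, 35.8% to 41.1% in the Etv1/4/5 libraries and 38.9% to 40.7% in the controls. Pancreatic exocrine RNA varied within each group: the summed RPKM of 32 acinar markers ran from 6644 to 20275 in the Cop1 libraries and from 3612 to 21012 in the Etv1/4/5 libraries. Of the 31 that were tested, limma called 0 in either direction (1 higher and 1 lower at an unadjusted p under 0.05), beside 18.4% of all genes tested. Xist, which marks female cells, was at 0.0192, 10.4 and 0.008 RPKM in the Cop1 libraries and at 0.00822, 0.0129, 29.4 and 24.2 RPKM in the Etv1/4/5 libraries, so 1 Cop1 library and 2 Etv1/4/5 libraries held RNA of female origin. One control library, replicate 2, went against its label: Esr1, which marks the CreERT2 transgene, was at 0.169, 99.1 and 0.191 RPKM in the 3 controls. Control levels are therefore given library by library, and they enter no test here.

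Of the targeted genes, none fell with the added deletion at the level of the whole gene. Cop1 was at 1.13, 0.984 and 1.002 RPKM in the Cop1 libraries and at 0.844, 1.04, 0.719 and 0.968 RPKM in the Etv1/4/5 libraries. Cop1 was not called (log2 fold change -0.15 ± 0.12, adjusted p = 0.44), and the groups overlapped. Etv1 was at 4.92, 5.01 and 4.23 RPKM in the Cop1 libraries and at 4.89, 5.61, 5.28 and 5.43 RPKM in the Etv1/4/5 libraries. Etv1 was not called (log2 fold change 0.15 ± 0.08, adjusted p = 0.2). Etv5 was at 3.58, 2.51 and 2.31 RPKM in the Cop1 libraries and at 4.11, 4.85, 2.57 and 3.22 RPKM in the Etv1/4/5 libraries. Etv5 was not called (log2 fold change 0.33 ± 0.21, adjusted p = 0.31), with controls at 4.17, 8.43 and 2.23 RPKM. Etv4 went against its label: it was at 0.0551, 0.0775 and 0.0614 RPKM in the Cop1 libraries and at 1.53, 0.927, 1.496 and 1.1 RPKM in the Etv1/4/5 libraries. Etv4 rose by 1.63 ± 0.16 on the log2 scale (adjusted p = 0.0004). It passed the low-value filter only through the Etv1/4/5 libraries, where it was high. All 4 Etv1/4/5 libraries lay far above every Cop1 library and every control, the latter at 0.0418, 0.0591 and 0.118 RPKM. The values count reads over whole genes, and the labels do not say which exons the alleles lack, so a level above 0 does not show an intact transcript. For the same reason neither Etv1 nor Etv5 can serve as a check of deletion in β cells. The 4 libraries are called Etv1/4/5 libraries after their label.

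**Figure D1:**
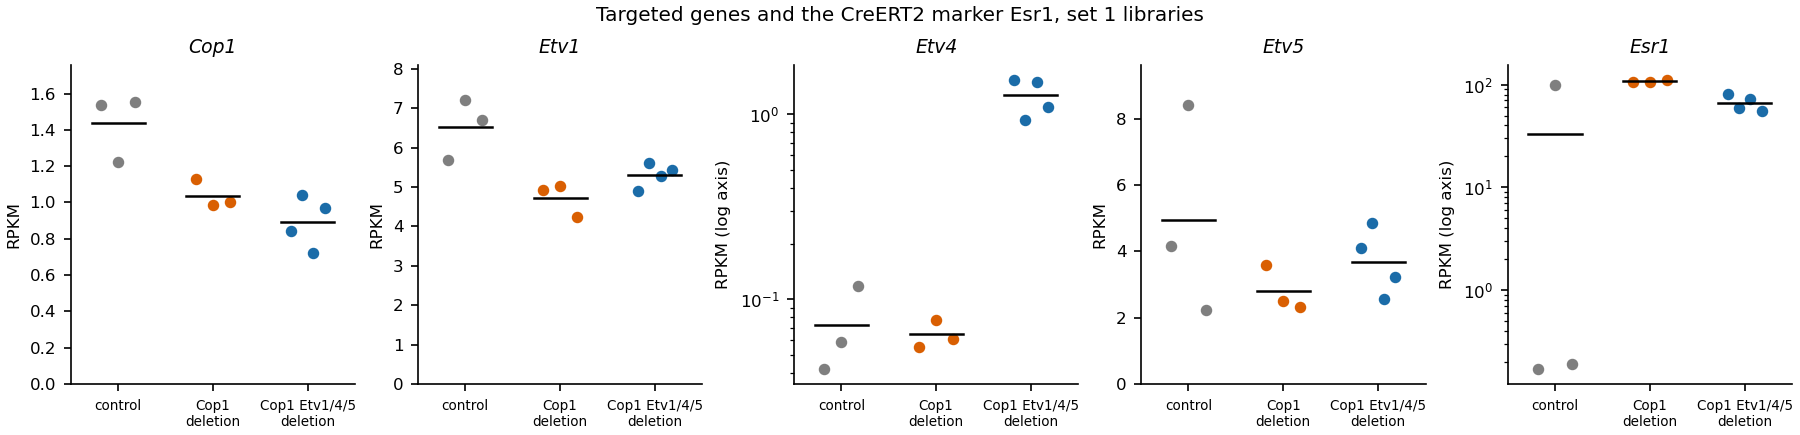
RPKM of Cop1, Etv1, Etv4, Etv5 and Esr1 in each set 1 library (points; horizontal lines are group means; n = 3 controls, 3 Cop1 deletion and 4 Cop1 Etv1/4/5 deletion libraries; log axes for Etv4 and Esr1). Etv4 stands at 0.927 to 1.53 RPKM in the Etv1/4/5 libraries against 0.0551 to 0.0775 in the Cop1 libraries, and 1 control library holds Esr1 at a level near that of the Cre-positive libraries.

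Esr1 also differed between the groups compared, at 106, 105 and 111 RPKM in the Cop1 libraries and 81, 58.7, 72.5 and 54.8 RPKM in the Etv1/4/5 libraries (log2 fold change -0.70 ± 0.13, adjusted p = 0.01). The call was kept under 17 of 19 alternatives and lost when control or set 2 libraries entered the estimate of the spread, with adjusted p of up to 0.83. Both fits that lost it included the set 1 controls, at 0.169, 99.1 and 0.191 RPKM of Esr1. The part of the Esr1 difference in the other results was not tested.

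With the threshold at a Benjamini-Hochberg adjusted p of 0.05 from limma, 2516 of 13654 genes were called, 18.4% of those tested. Of these, 1461 genes were higher in the Etv1/4/5 libraries, 10.7% of those tested, and 1055 were lower, 7.73%. Most differences were small: the median absolute log2 fold change over all genes was 0.115, and 142 called genes changed at least 2-fold, of which 81 rose and 61 fell. The balance of directions depends on the scaling. With each library scaled to the same total RPKM, the median over all genes moved from 0.00 to -0.13 and 662 genes were called higher against 3995 lower, so 14.2% of the calls were higher in place of 58.1%. Without Ins1 and Ins2 in that total, 808 were higher and 837 lower, or 49.1% of the calls. Directions of single small changes are therefore relative to this shift. Of the 133 called genes named by rule, 0 changed sign under any alternative in which they were tested. Leaving out Cop1 replicate 2 reduced the calls to 1503. Estimating the spread over all 6 groups of the study left 931 calls, and 44 of the genes named by rule lost theirs, among them Esr1, Elf3, Ehf, Spred2, Spry1, Kcnk16, Hes1, Peg3, Gcg, Pcx, Myc, Atf4, Psat1, Slc3a2, Cyp51, Fdps, Trib3, Bbc3, Ccnd2 and Kdr.

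**Figure D2:**
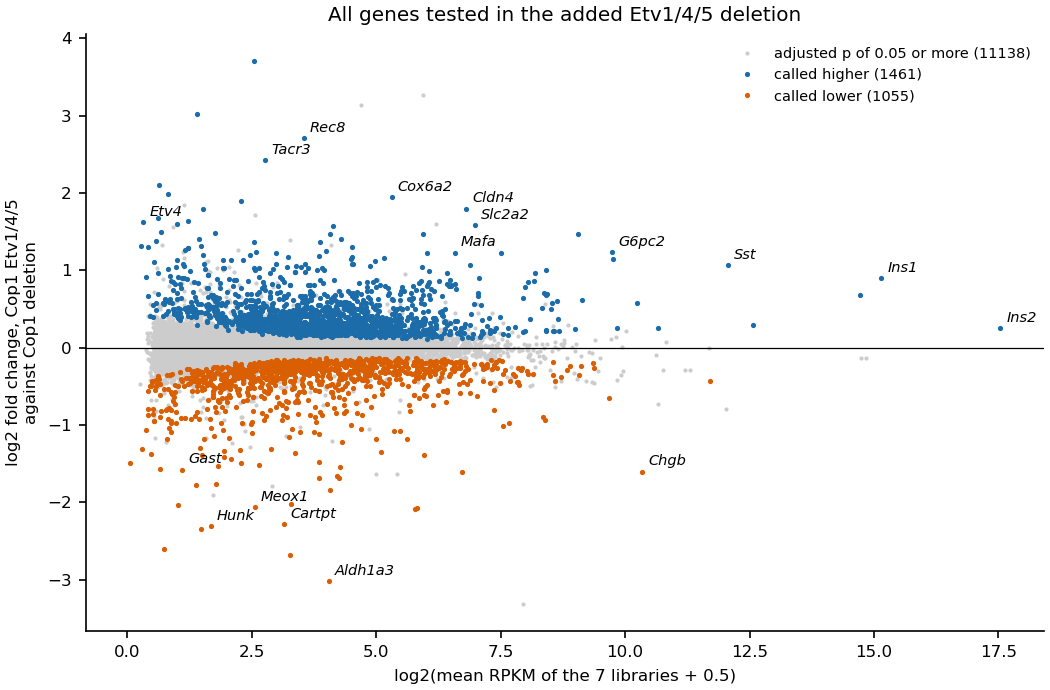
Each point is 1 of the 13654 genes tested, with its log2 fold change between the Etv1/4/5 and the Cop1 libraries against its mean level, log2(RPKM + 0.5), over the 7 libraries. Genes called higher (1461) and lower (1055) are coloured, and the insulin, glucose-handling and progenitor genes described in the text are marked among those with large changes.

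The β-cell identity and maturity genes held more calls upward than downward. Of 34 genes on that list, 32 were tested, and 18 were called higher, 3 lower and 11 not (median log2 fold change 0.25, against 0.00 over all genes tested). These were 56.25% and 9.38% of the members tested, beside 10.7% higher and 7.73% lower among all genes tested. With each library scaled to the same total RPKM the counts were 11 and 7, and with the spread estimated over all 6 groups of the study they were 9 and 1. The list was chosen with earlier results of these data known, so its direction is not independent evidence.

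Glucose entry and handling came first among them. Slc2a2, which encodes the glucose transporter GLUT2, was at 45, 62.8 and 68.9 RPKM in the Cop1 libraries and at 169.7, 206, 148 and 179 RPKM in the Etv1/4/5 libraries. Slc2a2 rose by 1.58 ± 0.17 on the log2 scale (adjusted p = 0.0012). The controls held 271, 189 and 247 RPKM, and 3 of the 4 Etv1/4/5 libraries lay between the highest Cop1 library and the lowest control. That lowest control is replicate 2, the library with Esr1, and all 4 Etv1/4/5 libraries lay under the other controls. G6pc2, which encodes the islet glucose-6-phosphatase, was at 467, 495 and 485 RPKM in the Cop1 libraries and at 1085, 1103, 1208 and 1155 RPKM in the Etv1/4/5 libraries. G6pc2 rose by 1.24 ± 0.05 on the log2 scale (adjusted p = 1.5e-05). Here the Etv1/4/5 libraries stood within or above the control range of 786 to 1096 RPKM. The top of that range is again control replicate 2, and all 4 Etv1/4/5 libraries lay above the other controls, at 1076 and 786 RPKM. Spc25, a kinetochore gene that neighbours G6pc2, was at 27.6, 32.6 and 30.1 RPKM in the Cop1 libraries and at 78.9, 81.6, 87.9 and 89.1 RPKM in the Etv1/4/5 libraries. Spc25 rose by 1.47 ± 0.07 on the log2 scale (adjusted p = 1.8e-05).

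Insulin genes rose unequally. Ins1 was at 20794, 23105 and 29057 RPKM in the Cop1 libraries and at 44869, 48039, 43499 and 43832 RPKM in the Etv1/4/5 libraries. Ins1 rose by 0.90 ± 0.11 on the log2 scale (adjusted p = 0.001), and the controls held 50279, 40562 and 45926 RPKM. Ins2, the more abundant of the pair, was at 175800.0, 163629 and 174825 RPKM in the Cop1 libraries and at 209067, 220363, 194592 and 192014 RPKM in the Etv1/4/5 libraries. Ins2 rose by 0.25 ± 0.07 on the log2 scale (adjusted p = 0.039). The groups overlapped in neither gene. Ins1 was called under all 19 alternatives tried and Ins2 under 8 of 19. Mafa, whose product binds the insulin promoter in mature β cells, was at 41.3, 59.3 and 61.3 RPKM in the Cop1 libraries and at 113, 132, 125 and 132 RPKM in the Etv1/4/5 libraries. Mafa rose by 1.23 ± 0.14 on the log2 scale (adjusted p = 0.0014), while the controls held 191, 145 and 318 RPKM. All 4 Etv1/4/5 libraries thus stayed under the lowest control. Neurod1, another activator of the insulin genes, rose by 0.32 on the log2 scale (adjusted p = 0.0087) and Nkx6-1, a repressor of other endocrine fates, by 0.30 (adjusted p = 0.031). The call of Nkx6-1 was kept under 7 of 19 alternatives and that of Neurod1 under 18.

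Several other factors of β-cell identity were not called. Pdx1, whose promoter drives the Cre, was at 77.4, 86 and 103 RPKM in the Cop1 libraries and at 65.1, 76.9, 65.3 and 75.8 RPKM in the Etv1/4/5 libraries. Pdx1 was not called (log2 fold change -0.32 ± 0.11, adjusted p = 0.072), although every Etv1/4/5 library lay under the lowest Cop1 library. It was called lower under 3 of 19 alternatives: equal total RPKM (adjusted p = 0.0093), library weights (adjusted p = 0.037) and without Cop1 replicate 1 (adjusted p = 0.035). Isl1 (log2 fold change 0.19, adjusted p = 0.26), Pax6 (0.09, adjusted p = 0.29), Nkx2-2 (0.10, adjusted p = 0.35) and Foxa2 (-0.14, adjusted p = 0.34) were not called. Ucn3, a peptide of mature β cells, was at 293, 303 and 349 RPKM in the Cop1 libraries and at 292, 335, 337 and 331 RPKM in the Etv1/4/5 libraries. Ucn3 was not called (log2 fold change 0.04 ± 0.07, adjusted p = 0.75). Rfx6, a factor of endocrine development, went the other way, from 36.2, 37.5 and 40.8 RPKM to 28.7, 29.4, 27.9 and 30.2 RPKM (log2 fold change -0.39 ± 0.05, adjusted p = 0.0016).

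Granule and processing genes split by direction. Slc30a8, which encodes the zinc transporter ZnT8 that loads zinc into insulin granules, was at 193, 224 and 228 RPKM in the Cop1 libraries and at 419, 475, 403 and 423 RPKM in the Etv1/4/5 libraries. Slc30a8 rose by 0.9999 ± 0.08 on the log2 scale (adjusted p = 0.00015), against 501, 433 and 494 RPKM in the controls. Ero1b, an oxidase that serves proinsulin folding, was at 181, 169.8 and 189 RPKM in the Cop1 libraries and at 329.5, 385, 288 and 302 RPKM in the Etv1/4/5 libraries. Ero1b rose by 0.85 ± 0.10 on the log2 scale (adjusted p = 0.00094). Sytl4, or granuphilin, which docks insulin granules, was at 32.3, 37.3 and 43.1 RPKM in the Cop1 libraries and at 70.6, 86, 72.5 and 80.7 RPKM in the Etv1/4/5 libraries. Sytl4 rose by 1.04 ± 0.10 on the log2 scale (adjusted p = 0.00061), still below the controls at 121, 97.3 and 130.0 RPKM. Chgb, which encodes the granule protein chromogranin B, moved the opposite way and was at 2144, 2128 and 2061 RPKM in the Cop1 libraries and at 609.7, 617, 811 and 758 RPKM in the Etv1/4/5 libraries. Chgb fell by 1.61 ± 0.10 on the log2 scale (adjusted p = 9.4e-05). The Etv1/4/5 libraries lay around the controls, at 704, 799 and 731 RPKM, and no Cop1 library came near either group. The related granin Chga rose slightly, from 5033, 5764 and 5378 RPKM to 5919, 6301, 7217 and 6929 RPKM (log2 fold change 0.29 ± 0.08, adjusted p = 0.039), with its call kept under 8 of 19 alternatives. Of the prohormone convertases, Pcsk1 fell (log2 fold change -0.28 ± 0.06, adjusted p = 0.015) and Pcsk2 rose (log2 fold change 0.25 ± 0.05, adjusted p = 0.012).

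**Figure D3:**
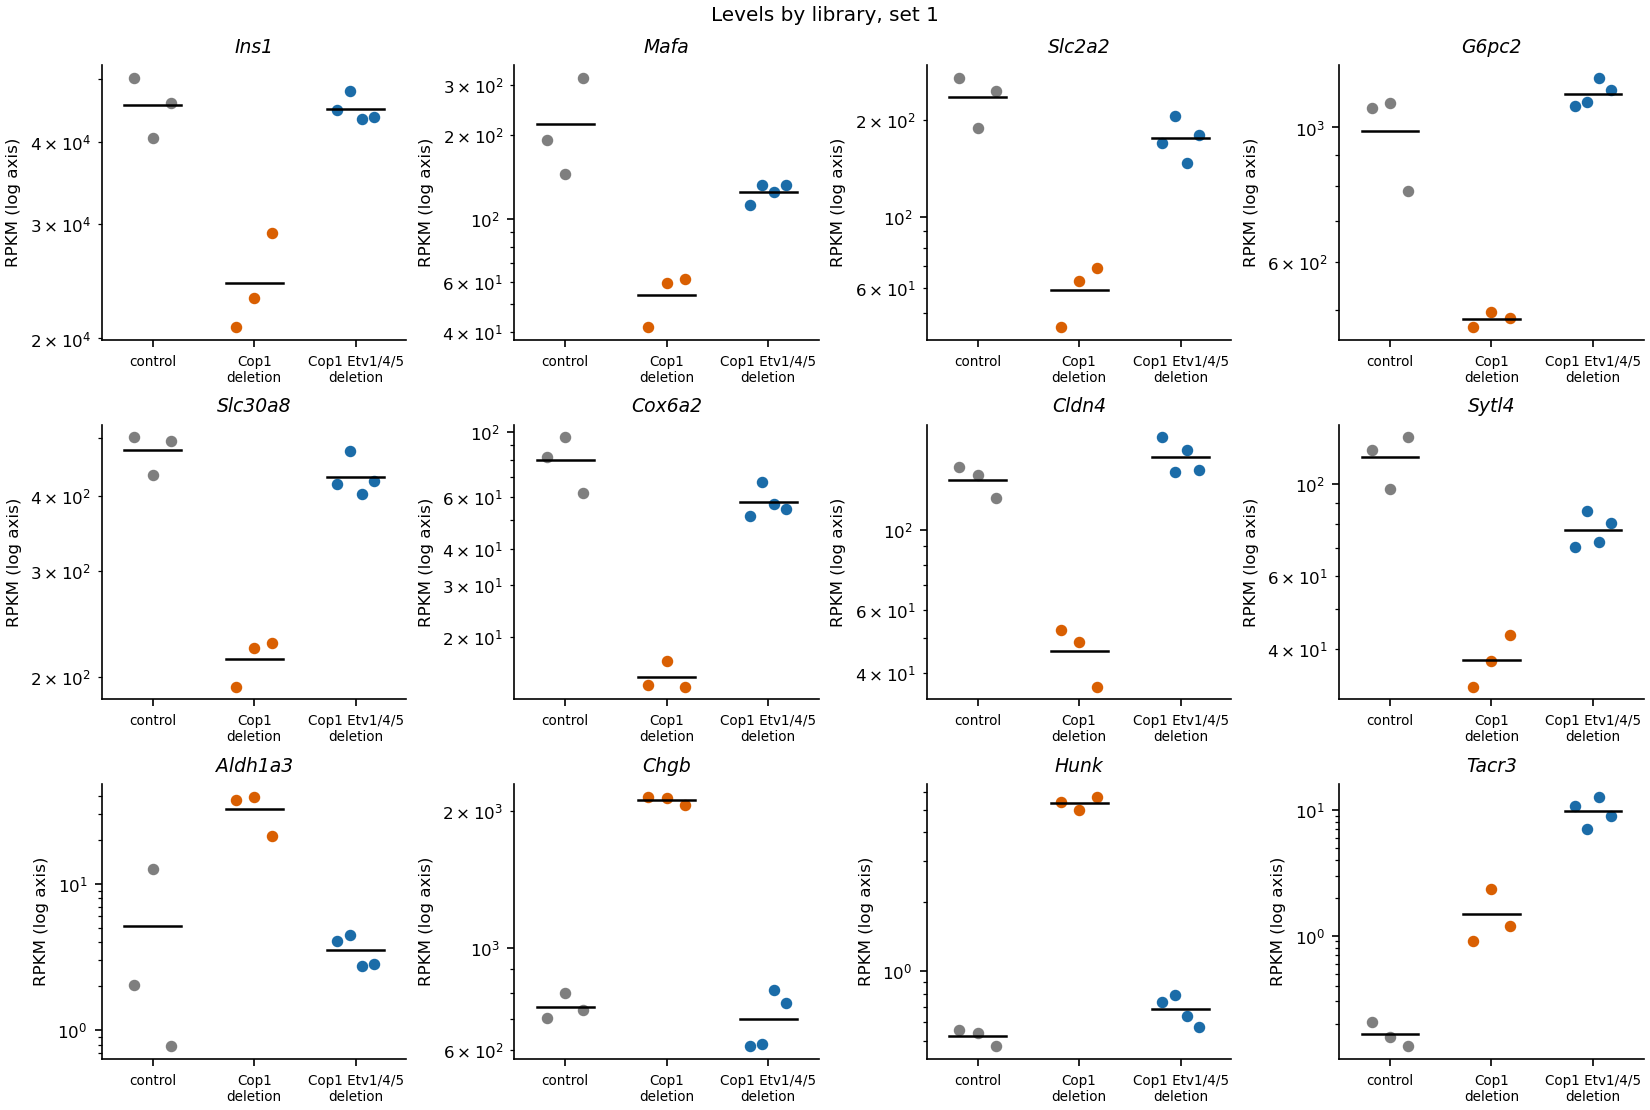
RPKM of 12 genes in each set 1 library on log axes (points; horizontal lines are group means; n = 3 controls, 3 Cop1 deletion and 4 Cop1 Etv1/4/5 deletion libraries). In all 12 panels the Cop1 and the Etv1/4/5 libraries do not overlap, but the genes were chosen with their values known. In G6pc2 and Chgb the Etv1/4/5 libraries lie near the controls, in Mafa and Sytl4 between controls and Cop1 libraries, and in Tacr3 above both.

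Among 48 tested genes of the exocytosis machinery, 11 were called higher and 8 lower (5 and 19 at equal total RPKM), and the median was -0.02. As shares these were 22.9% and 16.7%, beside 10.7% and 7.73% of all genes tested. Both counts were 5 without Cop1 replicate 2. Without Etv1/4/5 replicate 2, 3 or 4 the higher count was 6, 7 and 7, and without replicate 3 the lower count was 5. Beside Sytl4, the largest rise was that of Mlph, a Rab27 effector of granule transport, which was at 0.555, 0.787 and 0.682 RPKM in the Cop1 libraries and at 1.84, 2.65, 1.67 and 2.25 RPKM in the Etv1/4/5 libraries. Mlph rose by 1.14 ± 0.15 on the log2 scale (adjusted p = 0.0015). It passed the low-value filter only through the Etv1/4/5 libraries, and it is 1 of the 11 called higher. Rab3b, a small GTPase of secretory vesicles, was at 29.4, 33.3 and 34.6 RPKM in the Cop1 libraries and at 17.6, 16.4, 18.8 and 18.2 RPKM in the Etv1/4/5 libraries. Rab3b fell by 0.85 ± 0.07 on the log2 scale (adjusted p = 0.00019). The plasma membrane SNARE gene Snap25 fell from 94.7, 88.4 and 88.2 RPKM to 72.1, 71.7, 64.6 and 69.1 RPKM (log2 fold change -0.38 ± 0.05, adjusted p = 0.0018). Syt13, a synaptotagmin of endocrine cells, fell from 436, 452 and 474 RPKM to 325, 339, 343 and 339.8 RPKM (log2 fold change -0.43 ± 0.04, adjusted p = 0.00052). In both genes the Etv1/4/5 libraries lay within or under the range of the controls, which held 73.2, 78.3 and 78 RPKM of Snap25 and 352, 346 and 339 RPKM of Syt13.

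Of 33 tested ion channel genes, 5 were called higher and 4 lower (3 and 8 at equal total RPKM; median 0.04). Shares of 15.2% and 12.1% stood near the 10.7% and 7.73% of all genes tested. The higher count was 2 or 3 without any 1 library other than Cop1 replicate 3, and the lower count 2 without any 1 of the Cop1 libraries. Abcc8, which encodes the SUR1 subunit of the ATP-sensitive potassium channel, was at 286, 292 and 306 RPKM in the Cop1 libraries and at 239, 234, 246 and 236 RPKM in the Etv1/4/5 libraries. Abcc8 fell by 0.30 ± 0.04 on the log2 scale (adjusted p = 0.0018). Its partner Kcnj11, the pore subunit Kir6.2, rose slightly (log2 fold change 0.17 ± 0.04, adjusted p = 0.03), a call kept under 8 of 19 alternatives. Kcnk3, a tandem-pore potassium channel gene of the TASK family, rose from 6.35, 6.13 and 4.53 RPKM to 9.8, 8.98, 10.9 and 8.56 RPKM (log2 fold change 0.71 ± 0.12, adjusted p = 0.0055). Kcnk16, which encodes the TALK-1 channel, rose from 144, 159 and 151 RPKM to 211, 222, 184 and 182 RPKM (log2 fold change 0.39 ± 0.08, adjusted p = 0.0098). Trpm5, a channel gene whose cation current follows calcium, was at 3.81, 8.41 and 12.7 RPKM in the Cop1 libraries and at 21.7, 26.3, 19.6 and 26.5 RPKM in the Etv1/4/5 libraries. Trpm5 rose by 1.58 ± 0.38 on the log2 scale (adjusted p = 0.037). The Trpm5 groups did not overlap, which the rule for naming the largest changes required. Its call was lost when any of 5 libraries was left out, with adjusted p from 0.067 to 0.093.

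The list of endocrine progenitor and dedifferentiation genes held the largest fall of any called list member. Of 12 tested members, 4 were called lower and 2 higher (8 and 1 at equal total RPKM; median -0.31). That was 33.3% lower and 16.7% higher, beside 7.73% and 10.7% of all genes tested. The lower count was 2 without Cop1 replicate 2, and the higher count 1 without Cop1 replicate 1 or 2. Aldh1a3, a retinal dehydrogenase known as a marker of failing β cells, was at 37.7, 39.4 and 21.2 RPKM in the Cop1 libraries and at 4.07, 4.47, 2.76 and 2.82 RPKM in the Etv1/4/5 libraries. Aldh1a3 fell by 3.02 ± 0.26 on the log2 scale (adjusted p = 0.00069). The 3 controls held 2.04, 12.7 and 0.776 RPKM, and the high value is that of the control library with Esr1. Neurog3, the factor that starts endocrine differentiation, was at 2.56, 3.7 and 4.9 RPKM in the Cop1 libraries and at 1.31, 1.26, 1.23 and 0.912 RPKM in the Etv1/4/5 libraries. Neurog3 fell by 1.302 ± 0.18 on the log2 scale (adjusted p = 0.0023). Gast, which encodes the hormone gastrin of fetal islets, was at 2.36, 3.78 and 2.73 RPKM in the Cop1 libraries and at 0.971, 0.507, 0.415 and 0.745 RPKM in the Etv1/4/5 libraries. Gast fell by 1.58 ± 0.20 on the log2 scale (adjusted p = 0.0013). It passed the low-value filter only through the Cop1 libraries, where it was high, and it is 1 of the 4 members called lower. Hes1, a Notch target, fell from 12, 12.5 and 9.94 RPKM to 8.69, 8.67, 8.17 and 9.11 RPKM (log2 fold change -0.38 ± 0.08, adjusted p = 0.012), and this call was lost without Cop1 replicate 2 (adjusted p = 0.051). The 2 members that rose were Cdkn1a, which encodes the cell cycle inhibitor p21 (log2 fold change 0.75 ± 0.12, adjusted p = 0.0063), and Myc (log2 fold change 0.43 ± 0.10, adjusted p = 0.022). The Myc call was lost without Cop1 replicate 1 or without Cop1 replicate 2, with adjusted p of 0.062 and 0.071. Of the 16 tested genes disallowed in β cells, such as Ldha (log2 fold change 0.05, adjusted p = 0.86) and Slc16a1 (0.02, adjusted p = 0.93), limma called 0, and 0 had an unadjusted p under 0.05. Among all genes tested, 18.4% were called.

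Hormones of other islet cells were examined with related peptides, 15 genes in all, of which 4 were called higher and 1 lower (4 and 2 at equal total RPKM; median -0.04). In percent, 26.7% were higher and 6.67% lower, beside 10.7% and 7.73% of all genes tested. The higher count was 2 without Cop1 replicate 1 or 3. Sst, the somatostatin gene of δ cells, was at 2307, 2796 and 2685 RPKM in the Cop1 libraries and at 4585, 4511, 7234 and 5794 RPKM in the Etv1/4/5 libraries. Sst rose by 1.07 ± 0.17 on the log2 scale (adjusted p = 0.0057), and the controls held 5004, 3627 and 7079 RPKM. Gcg, the glucagon gene of α cells, was at 16752, 25932 and 18048 RPKM in the Cop1 libraries and at 31538, 29389.7, 38031 and 29595 RPKM in the Etv1/4/5 libraries. Gcg rose by 0.69 ± 0.16 on the log2 scale (adjusted p = 0.023), but the call was lost without any one of 3 libraries (adjusted p from 0.051 to 0.074). In bulk islets, a change in the number of cells of a type and a change of RNA per cell cannot be told apart. Ppy, the hormone of PP cells, was at 5016, 6259.8 and 4604 RPKM in the Cop1 libraries and at 1751, 2247, 4384 and 4923 RPKM in the Etv1/4/5 libraries and was not called (log2 fold change -0.79 ± 0.40, adjusted p = 0.24). Cartpt, a neuropeptide gene of islet cells, had the largest fall of the list and was at 17.1, 18.6 and 11.4 RPKM in the Cop1 libraries and at 2.75, 2.58, 3.57 and 2.27 RPKM in the Etv1/4/5 libraries. Cartpt fell by 2.28 ± 0.19 on the log2 scale (adjusted p = 0.00034). The other 2 called members are imprinted genes and no hormones: Peg3 rose from 98.8, 96.6 and 96.3 RPKM to 147, 136, 146 and 149.8 RPKM (log2 fold change 0.57 ± 0.04, adjusted p = 0.00015), and Nnat from 3.89, 4.44 and 4.21 RPKM to 6.96, 9.35, 8.1 and 14.9 RPKM (log2 fold change 1.09 ± 0.23, adjusted p = 0.019). Nnat lies within the gene Blcap, so reads of the 2 genes may be shared, and its call was lost without any 1 of the 3 Cop1 libraries (adjusted p from 0.057 to 0.068).

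Receptor and cAMP signalling genes included 9 called higher and 6 lower among 38 tested (6 and 11 at equal total RPKM; median 0.02). As shares, 23.7% were higher and 15.8% lower, beside 10.7% and 7.73% of all genes tested. Vipr1, a receptor for the neuropeptides VIP and PACAP, was at 9.65, 9.31 and 9.42 RPKM in the Cop1 libraries and at 17, 19.1, 17.3 and 17.7 RPKM in the Etv1/4/5 libraries. Vipr1 rose by 0.87 ± 0.05 on the log2 scale (adjusted p = 4.7e-05). The prolactin receptor gene Prlr rose from 18.5, 18.7 and 16.9 RPKM to 31.2, 33.2, 51.8 and 46.5 RPKM (log2 fold change 1.12 ± 0.18, adjusted p = 0.0075). Receptors of both incretins also rose, Gipr (log2 fold change 0.42 ± 0.06, adjusted p = 0.0025) and Glp1r (log2 fold change 0.35 ± 0.09, adjusted p = 0.031), called under 17 and 9 of 19 alternatives. Ffar2, which encodes a receptor for short-chain fatty acids, was at 17, 17 and 18.4 RPKM in the Cop1 libraries and at 9.32, 10.4, 10.3 and 10.1 RPKM in the Etv1/4/5 libraries. Ffar2 fell by 0.77 ± 0.05 on the log2 scale (adjusted p = 0.00011). Rgs9, a regulator that shortens G-protein signals, was at 17.1, 15.7 and 17.5 RPKM in the Cop1 libraries and at 9.57, 9.24, 8.4 and 8.72 RPKM in the Etv1/4/5 libraries. Rgs9 fell by 0.87 ± 0.06 on the log2 scale (adjusted p = 0.00011). For Ffar2, Rgs9 and Vipr1 the Etv1/4/5 libraries lay close to the controls, at 9.29, 8.98 and 9.98, 9.18, 9.37 and 9.22 and 20.4, 17.4 and 19 RPKM. Tacr3, the receptor for the tachykinin neurokinin B, behaved differently: it was at 0.207, 0.156 and 0.131 RPKM in the controls, at 0.912, 2.36 and 1.19 RPKM in the Cop1 libraries and at 10.8, 7.09, 12.7 and 8.97 RPKM in the Etv1/4/5 libraries (log2 fold change 2.42 ± 0.28, adjusted p = 0.0018).

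Of 39 tested genes for mitochondrial oxidation and shuttles, 6 were higher and 2 lower (3 and 15 at equal total RPKM; median 0.04), a called share of 20.5% beside 18.4% of all genes. The higher count was 3 without Etv1/4/5 replicate 2, and the lower count 1 without any 1 of the Cop1 libraries. Cox6a2, a subunit isoform of cytochrome c oxidase known from muscle, stood apart in size: it was at 13.7, 16.5 and 13.5 RPKM in the Cop1 libraries and at 51.8, 67.5, 56.6 and 54.7 RPKM in the Etv1/4/5 libraries. Cox6a2 rose by 1.95 ± 0.10 on the log2 scale (adjusted p = 4.7e-05), and the controls held 82, 96 and 62 RPKM. Its ubiquitous counterpart Cox6a1 was not called (log2 fold change -0.09, adjusted p = 0.32). Pcx, which encodes pyruvate carboxylase, rose (log2 fold change 0.40 ± 0.07, adjusted p = 0.0063), as did Gpd1 of the glycerol phosphate shuttle (log2 fold change 0.32 ± 0.07, adjusted p = 0.014). Me3, a mitochondrial malic enzyme gene, fell from 2.87, 2.08 and 1.57 RPKM to 0.573, 0.717, 0.789 and 0.842 RPKM (log2 fold change -1.10 ± 0.17, adjusted p = 0.0032). It passed the low-value filter only through the Cop1 libraries, and it is 1 of the 2 called lower. Bckdhb, a subunit of the branched-chain keto acid dehydrogenase, was at 37.9, 28.5 and 27.1 RPKM in the Cop1 libraries and at 10, 8.71, 9.19 and 9.22 RPKM in the Etv1/4/5 libraries. Bckdhb fell by 1.68 ± 0.11 on the log2 scale (adjusted p = 0.00011). Glul, which encodes glutamine synthetase, was at 57.4, 62.9 and 61 RPKM in the Cop1 libraries and at 108, 113, 107 and 115 RPKM in the Etv1/4/5 libraries. Glul rose by 0.87 ± 0.05 on the log2 scale (adjusted p = 4.5e-05). Glycolysis and hypoxia genes had 3 of 22 higher and 2 lower (0 and 6 at equal total RPKM), none past 2-fold. Both shares, 13.6% and 9.09%, were near the 10.7% and 7.73% of all genes tested.

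Cholesterol synthesis was represented among the rises. Of 24 tested genes for fatty acids and sterols, 6 were higher and 1 lower (4 and 5 at equal total RPKM; median 0.11). That is 25% and 4.17%, beside 10.7% and 7.73% of all genes tested. Msmo1, a sterol oxidase gene of cholesterol synthesis, was at 68.4, 59.7 and 61.5 RPKM in the Cop1 libraries and at 115, 118, 105 and 104 RPKM in the Etv1/4/5 libraries. Msmo1 rose by 0.80 ± 0.06 on the log2 scale (adjusted p = 0.0002), and Cyp51 (log2 fold change 0.63 ± 0.09, adjusted p = 0.0033) and Fdps (log2 fold change 0.56 ± 0.10, adjusted p = 0.0079) also rose. The fatty acid elongase gene Elovl6 was the one that fell, from 7.46, 6.85 and 7.31 RPKM to 4.5, 4.97, 4.89 and 5.27 RPKM (log2 fold change -0.51 ± 0.07, adjusted p = 0.0015). Cyp51 and Fdps were not called with the spread estimated over all 6 groups (adjusted p = 0.1 and 0.19).

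Genes of the amino acid response and of serine synthesis had 10 members called higher and 1 lower among 19 (6 and 1 at equal total RPKM; median 0.29). In percent, 52.6% were higher and 5.26% lower, beside 10.7% and 7.73% of all genes tested. With the spread over all 6 groups, 0 members kept their call, and without any 1 library other than Etv1/4/5 replicate 3 the lower count was 0. Psat1, of serine synthesis, was at 7.79, 9.87 and 8.44 RPKM in the Cop1 libraries and at 12.6, 11.5, 13.1 and 12.2 RPKM in the Etv1/4/5 libraries. Psat1 rose by 0.49 ± 0.08 on the log2 scale (adjusted p = 0.0044). Slc3a2, the heavy chain of amino acid transporters, was at 75, 77.9 and 72.7 RPKM in the Cop1 libraries and at 93.8, 86.8, 99.7 and 90.4 RPKM in the Etv1/4/5 libraries. Slc3a2 rose by 0.30 ± 0.05 on the log2 scale (adjusted p = 0.0064). Protein folding genes of the endoplasmic reticulum were divided, 6 higher and 5 lower of 31 (2 and 12 at equal total RPKM), with 3 higher when Etv1/4/5 replicate 2 was left out. Their shares were 19.4% and 16.1%, beside 10.7% and 7.73% of all genes tested. Beside Ero1b, the changes were small: Pdia6, a disulfide isomerase gene, fell (log2 fold change -0.35 ± 0.05, adjusted p = 0.0025), and Atf4, the factor of the integrated stress response, rose (log2 fold change 0.22 ± 0.04, adjusted p = 0.0085) but was not called at equal total RPKM. Hspa5, the central chaperone of that compartment, was at 3418, 3307 and 3122 RPKM in the Cop1 libraries and at 3360.0, 3392, 3289.5 and 3070.1 RPKM in the Etv1/4/5 libraries and was not called.

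Genes near COP1 and the ETV factors were considered next. Of 21 tested ETS family genes, 5 were higher and 2 lower (4 and 3 at equal total RPKM; median 0.11). These were 23.8% and 9.52% of the list, beside 10.7% and 7.73% of all genes tested. The 5 higher include Etv4, which entered the test only through the Etv1/4/5 libraries. The higher count was 3 without Etv1/4/5 replicate 1, 3 or 4, and the lower count 1 without any 1 of the 7 libraries. Apart from Etv4 itself, Ets2 was at 47.9, 42.9 and 39 RPKM in the Cop1 libraries and at 72.4, 65.6, 78.7 and 73.3 RPKM in the Etv1/4/5 libraries. Ets2 rose by 0.74 ± 0.08 on the log2 scale (adjusted p = 0.00064). Elf3, an epithelial ETS factor, was at 19.8, 22 and 18.1 RPKM in the Cop1 libraries and at 36.7, 37.3, 28.9 and 32.1 RPKM in the Etv1/4/5 libraries. Elf3 rose by 0.74 ± 0.10 on the log2 scale (adjusted p = 0.0021). Ehf, another epithelial member, fell from 18.7, 17.6 and 20.2 RPKM to 10.2, 8.27, 12.3 and 11.2 RPKM (log2 fold change -0.83 ± 0.12, adjusted p = 0.003). Erf, an ETS repressor regulated by ERK, rose (log2 fold change 0.50 ± 0.07, adjusted p = 0.0018). With the spread over all 6 groups the adjusted p was 0.054 for Elf3 and 0.1 for Ehf. Of the 19 genes for COP1 ligase and COP9 signalosome subunits, only Trib3, a pseudokinase of the tribbles family, was called (log2 fold change 0.57 ± 0.12, adjusted p = 0.016), against 1 higher and 9 lower at equal total RPKM. The called share was 5.26%, beside 18.4% of all genes tested.

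Genes reported as PEA3 targets in other tissues had 0 members called higher by limma (3 at an unadjusted p under 0.05) and 2 lower among 15 tested. Calls in either direction made up 13.3% of this list, beside 18.4% of all genes tested. The higher count was 1 without Cop1 replicate 1 or Etv1/4/5 replicate 1, 2 or 3. Met, the receptor of hepatocyte growth factor, was at 9.75, 9.6 and 11.1 RPKM in the Cop1 libraries and at 5.95, 6.13, 5.33 and 6.42 RPKM in the Etv1/4/5 libraries. Met fell by 0.72 ± 0.08 on the log2 scale (adjusted p = 0.00058). The Etv1/4/5 libraries lay under the controls for Met, which held 8.61, 7.13 and 7.39 RPKM. Spp1, which encodes osteopontin, was at 153, 73.2 and 65.5 RPKM in the Cop1 libraries and at 39, 18.9, 13.5 and 19.2 RPKM in the Etv1/4/5 libraries. Spp1 fell by 2.08 ± 0.46 on the log2 scale (adjusted p = 0.033). Its call was lost without any 1 of 6 libraries (adjusted p from 0.061 to 0.079), and NCBI Gene 100503439, which carries nearly the same values, may share its reads. Ductal markers summed to 371 to 417 RPKM in the Cop1 libraries and 261 to 376 RPKM in the Etv1/4/5 libraries. These sums include Spp1 itself, so they are no separate sign of a fall. Of 8 tested, 1 was called higher and 1, Spp1, lower. Each made up 12.5%, beside 10.7% higher and 7.73% lower among all genes tested.

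ERK feedback genes, which respond to the kinase cascade upstream of the PEA3 factors, had 2 higher and 2 lower among 13 tested (1 and 4 at equal total RPKM), and 4 higher without Cop1 replicate 1. Each direction held 15.4%, beside 10.7% higher and 7.73% lower among all genes tested. Dusp6, a phosphatase of ERK, was at 32.1, 25.9 and 24.6 RPKM in the Cop1 libraries and at 17.5, 15.6, 13.8 and 14.7 RPKM in the Etv1/4/5 libraries. Dusp6 fell by 0.81 ± 0.11 on the log2 scale (adjusted p = 0.0018), with controls at 9.59, 15.1 and 8.04 RPKM. Spry1, an inhibitor of the cascade, fell from 5.63, 4.65 and 4.32 RPKM to 3.33, 3.28, 3.04 and 3.54 RPKM (log2 fold change -0.49 ± 0.09, adjusted p = 0.0089), while Spred2 rose from 11.5, 9.89 and 8.88 RPKM to 14, 14.8, 14 and 14 RPKM (log2 fold change 0.48 ± 0.08, adjusted p = 0.0042). Dusp1, Dusp4, Dusp5, Spry2 and Spry4 were not called, with log2 fold changes from -0.24 to 0.39.

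AP-1 and immediate early genes had 6 members called higher and 0 lower by limma among 22 (5 and 0 at equal total RPKM; median 0.38, against 0.00 over all genes), and 0 were lower at an unadjusted p under 0.05. The share called higher was 27.3%, beside 10.7% higher and 7.73% lower among all genes tested. Fosl1, which encodes the AP-1 subunit FRA1, was at 8.93, 9.5 and 9.56 RPKM in the Cop1 libraries and at 22.1, 17.2, 19.3 and 18.7 RPKM in the Etv1/4/5 libraries. Fosl1 rose by 1.01 ± 0.08 on the log2 scale (adjusted p = 0.00017). Jund was at 277, 318 and 329 RPKM in the Cop1 libraries and at 471, 462, 494 and 442 RPKM in the Etv1/4/5 libraries. Jund rose by 0.60 ± 0.07 on the log2 scale (adjusted p = 0.00069). Maff, a small MAF factor, was at 61.4, 75 and 70.9 RPKM in the Cop1 libraries and at 116, 117, 124 and 112 RPKM in the Etv1/4/5 libraries. Maff rose by 0.76 ± 0.07 on the log2 scale (adjusted p = 0.00031). Jun, whose protein is a COP1 substrate, was at 277, 482 and 521 RPKM in the Cop1 libraries and at 307, 428, 456 and 568 RPKM in the Etv1/4/5 libraries, with overlap of the groups and no call (log2 fold change 0.06 ± 0.29, adjusted p = 0.91). Fos (-0.11, adjusted p = 0.89), Egr1 (0.08, adjusted p = 0.85) and Fosb (0.14, adjusted p = 0.78) were likewise not called and ran widely within each group. Srf, a partner of ETS factors at immediate early genes, was at 69.3, 68 and 60.4 RPKM in the Cop1 libraries and at 121, 117, 122 and 109.8 RPKM in the Etv1/4/5 libraries. Srf rose by 0.83 ± 0.06 on the log2 scale (adjusted p = 0.00012).

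Of 19 tested epithelial junction and keratin genes, 9 were called higher, 1 lower and 9 not (8 and 2 at equal total RPKM; median 0.16). As shares, 47.4% were higher and 5.26% lower, beside 10.7% and 7.73% of all genes tested. The lower count was 3 without Cop1 replicate 1 and 2 without Etv1/4/5 replicate 1. Cldn4, a tight junction protein gene, was at 52.8, 48.6 and 36.5 RPKM in the Cop1 libraries and at 181, 145, 167 and 147 RPKM in the Etv1/4/5 libraries. Cldn4 rose by 1.80 ± 0.13 on the log2 scale (adjusted p = 0.00026), and the controls held 149.6, 142 and 123 RPKM. Krt8 and Krt18, whose proteins pair in the filaments of simple epithelia, rose together. Krt8 was at 97.5, 115 and 97.3 RPKM in the Cop1 libraries and at 245, 243, 249 and 228 RPKM in the Etv1/4/5 libraries. Krt8 rose by 1.22 ± 0.07 on the log2 scale (adjusted p = 4.6e-05), and Krt18 was at 253, 267 and 234 RPKM in the Cop1 libraries and at 429, 385, 422 and 378 RPKM in the Etv1/4/5 libraries. Krt18 rose by 0.68 ± 0.06 on the log2 scale (adjusted p = 0.00037). Cldn7 rose from 34.6, 34.5 and 32.8 RPKM to 46.9, 44.9, 52.4 and 48.9 RPKM (log2 fold change 0.50 ± 0.06, adjusted p = 0.00077). The ductal keratins Krt7 (log2 fold change -0.20, adjusted p = 0.14) and Krt19 (-0.35, adjusted p = 0.79) were not called. Lmna, which encodes the nuclear lamins A and C, was at 68.2, 78.1 and 69.2 RPKM in the Cop1 libraries and at 163, 158, 145 and 141 RPKM in the Etv1/4/5 libraries. Lmna rose by 1.07 ± 0.07 on the log2 scale (adjusted p = 8.2e-05).

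Promoter sequences are shown for 4 called genes, Lmna and Cldn4 together with Itpkc and Tspan15, picked because each promoter holds an ETS or AP-1 word. They are the 250 bases before the RefSeq start on GRCm38.p6, each on the minus strand, printed 5′ to 3′ along the gene. Capitals mark CCGGAAGT or its reverse complement ACTTCCGG, an ETS word with the GGAA core, in Lmna and Itpkc, and TGACTCA or its reverse complement TGAGTCA, the AP-1 word, in Cldn4 and Tspan15. The windows are chr3:88493313-88493562 for Lmna, chr7:27228618-27228867 for Itpkc, chr5:134946935-134947184 for Cldn4 and chr10:62231219-62231468 for Tspan15.
Lmna: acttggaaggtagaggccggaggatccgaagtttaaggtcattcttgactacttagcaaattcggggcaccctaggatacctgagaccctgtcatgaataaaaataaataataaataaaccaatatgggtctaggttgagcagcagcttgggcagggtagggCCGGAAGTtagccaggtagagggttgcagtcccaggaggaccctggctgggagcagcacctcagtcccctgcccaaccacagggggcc
Itpkc: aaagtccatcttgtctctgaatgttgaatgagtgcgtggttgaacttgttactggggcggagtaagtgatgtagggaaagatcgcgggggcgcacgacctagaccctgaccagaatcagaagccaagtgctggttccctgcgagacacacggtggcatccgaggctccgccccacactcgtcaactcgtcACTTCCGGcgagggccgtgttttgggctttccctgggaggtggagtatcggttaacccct
Cldn4: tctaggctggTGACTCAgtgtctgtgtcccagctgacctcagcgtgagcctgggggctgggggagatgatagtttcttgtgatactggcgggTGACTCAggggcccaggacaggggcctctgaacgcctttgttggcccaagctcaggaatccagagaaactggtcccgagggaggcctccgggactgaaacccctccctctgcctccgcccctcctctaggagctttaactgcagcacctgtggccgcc
Tspan15: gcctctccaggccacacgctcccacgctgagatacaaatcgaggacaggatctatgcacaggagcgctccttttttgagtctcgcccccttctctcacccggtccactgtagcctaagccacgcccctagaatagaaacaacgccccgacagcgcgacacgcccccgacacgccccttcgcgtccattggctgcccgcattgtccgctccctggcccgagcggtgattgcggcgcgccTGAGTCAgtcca

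The ETS word began 88 bases before the start of Lmna and 60 bases before that of Itpkc, and Cldn4 held the AP-1 word at 240 and 158 bases before its start. Itpkc, an inositol trisphosphate kinase gene, was at 13.7, 13.7 and 12.6 RPKM in the Cop1 libraries and at 23.3, 22.8, 22.1 and 21.6 RPKM in the Etv1/4/5 libraries. Itpkc rose by 0.73 ± 0.05 on the log2 scale (adjusted p = 9.4e-05). Windows of 300 bases around the start were searched on both strands, with chromosome 18 left out. A gene was counted if any of its windows held the word. The ETS word was present in 4.31% of 27025 genes with a promoter and in 9.14% of the 9852 that were tested. It was present in 8.55% of genes called higher and in 4.8% of genes called lower. The AP-1 word was present in 5.95% of all genes with a promoter, 4.37% of tested genes, 5.45% of those called higher and 4.55% of those called lower. A promoter was at hand for 98 of the 133 named genes that were called. In the 250 bases before the start, the ETS word also stood in Cldn7, which rose, and P4hb, which fell. The AP-1 word also stood in Msmo1, Rprml and Prom1, which rose, and in Met, Bag3 and 5730412P04Rik, which fell. The other named called genes with a promoter held neither word there. A match describes these letters only and shows no binding.

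Targets of p53 were called higher in 5 of 19 cases and lower in 1 (5 and 3 at equal total RPKM). In percent this was 26.3% and 5.26%, beside 10.7% and 7.73% of all genes tested. Gadd45a, a stress-induced gene, was at 21.8, 20.8 and 16.2 RPKM in the Cop1 libraries and at 37.4, 34.7, 33 and 30.2 RPKM in the Etv1/4/5 libraries. Gadd45a rose by 0.78 ± 0.11 on the log2 scale (adjusted p = 0.0026). Cdkn1a was at 40.0, 47.3 and 31.9 RPKM in the Cop1 libraries and at 69.2, 61.1, 71.6 and 63.9 RPKM in the Etv1/4/5 libraries, while Bbc3, which encodes the apoptosis protein PUMA, fell (log2 fold change -0.52 ± 0.08, adjusted p = 0.0037). Mdm2, a central p53 target, was at a log2 fold change of 0.04, adjusted p = 0.6. Of 28 cell cycle genes only 14 were tested, since Mki67, Top2a and 12 others did not reach the minimum level. Of these 14, 2 were called higher and 1 lower (1 and 5 at equal total RPKM, and 2 and 5 at an unadjusted p under 0.05; median -0.16). Both shares, 14.3% and 7.14%, were near the 10.7% and 7.73% of all genes tested. The higher count was 1 without Cop1 replicate 2 or Etv1/4/5 replicate 2, and the lower count 3, 0 and 2 without Cop1 replicate 1, Cop1 replicate 3 and Etv1/4/5 replicate 3. Rrm2, a ribonucleotide reductase subunit gene, was at 2.22, 1.95 and 2.65 RPKM in the Cop1 libraries and at 1.46, 1.42, 1.45 and 1.67 RPKM in the Etv1/4/5 libraries. Rrm2 fell by 0.47 ± 0.11 on the log2 scale (adjusted p = 0.019), with its call kept under 16 of 19 alternatives. Ccnd2, the main D-type cyclin gene of β cells, rose from 132, 131 and 127 RPKM to 167, 177, 167 and 169 RPKM (log2 fold change 0.39 ± 0.04, adjusted p = 0.00051). Heat shock genes had 0 members called higher by limma (1 at an unadjusted p under 0.05) and 5 lower among 18 (0 and 7 at equal total RPKM). The share called lower was 27.8%, beside 7.73% lower and 10.7% higher among all genes tested. The lower count was 1 with the spread over all 6 groups, 1 without Cop1 replicate 1 or 2, 2 without Etv1/4/5 replicate 2 and 3 without Cop1 replicate 3 or Etv1/4/5 replicate 1 or 3. Hspa1a was at 278, 249 and 249 RPKM in the Cop1 libraries and at 89.8, 113, 142 and 185 RPKM in the Etv1/4/5 libraries. Hspa1a fell by 1.02 ± 0.23 on the log2 scale (adjusted p = 0.029), and its near-identical copy Hspa1b followed (log2 fold change -0.98 ± 0.20, adjusted p = 0.019), so reads of this pair may be split. Both calls were lost when single libraries were left out, with adjusted p of up to 0.1.

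**Figure D4:**
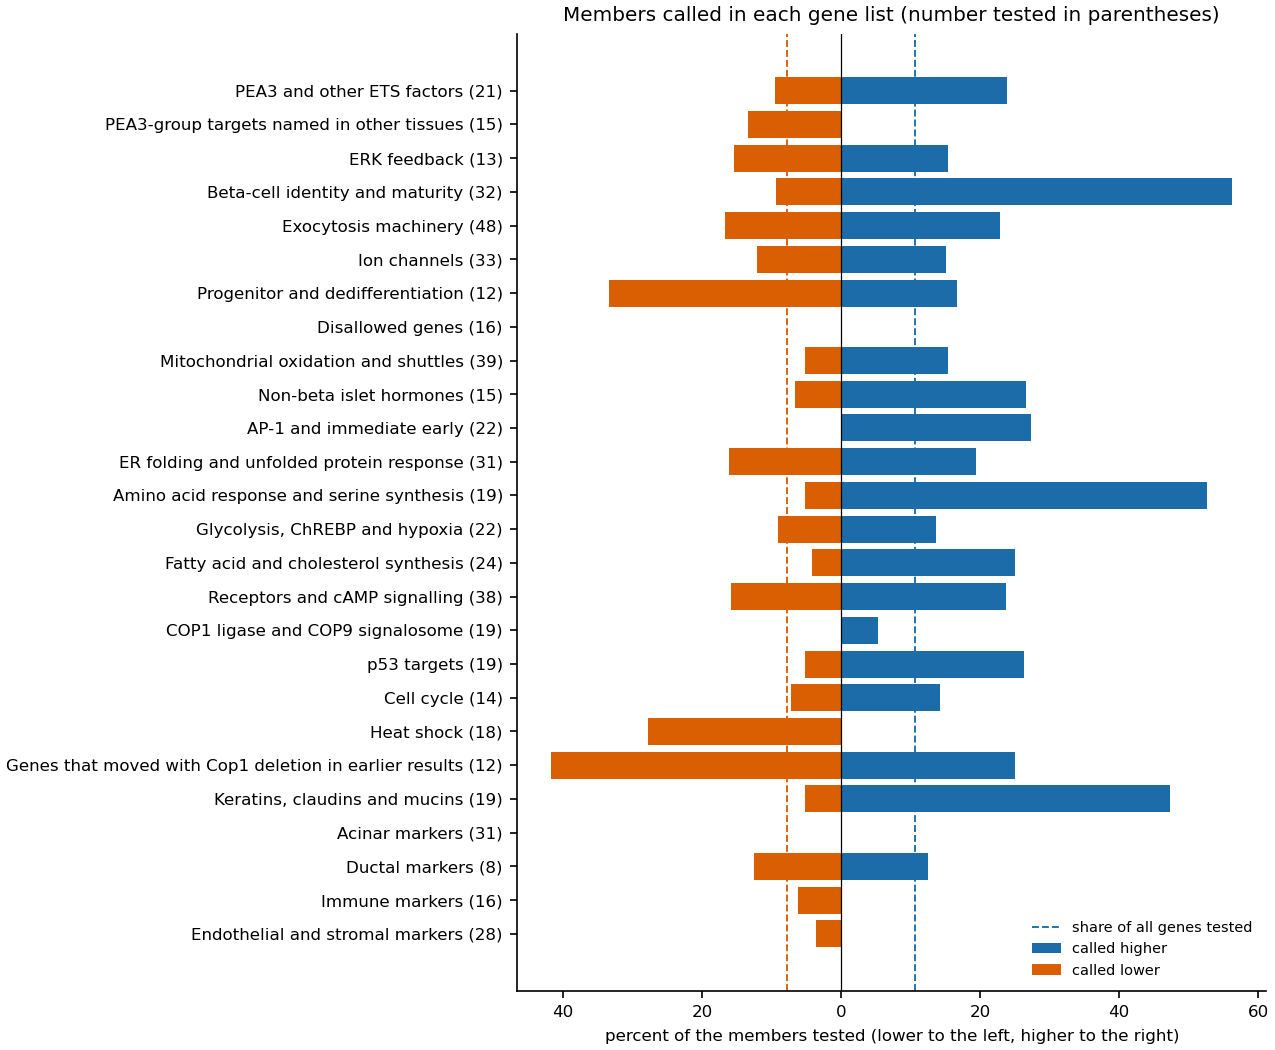
Percent of the tested members called higher (right) or lower (left) in each gene list with at least 8 tested members; dashed lines are the shares among all genes tested, 10.7% higher and 7.73% lower. β-cell identity (18 of 32), amino acid response (10 of 19) and keratins and claudins (9 of 19) hold the largest shares called higher, and acinar markers and disallowed genes hold 0 calls.

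Some of the largest changes fell outside these lists. Rec8, a cohesin subunit gene of meiosis, was at 2.52, 2.28 and 1.87 RPKM in the Cop1 libraries and at 24.8, 18.7, 16 and 11.8 RPKM in the Etv1/4/5 libraries. Rec8 rose by 2.71 ± 0.23 on the log2 scale (adjusted p = 0.00056). Gm11942 was at 0.0968, 0.102 and 0.539 RPKM in the Cop1 libraries and at 12.7, 9.57, 7.04 and 7.33 RPKM in the Etv1/4/5 libraries. Gm11942 rose by 3.71 ± 0.26 on the log2 scale (adjusted p = 0.00022), and NCBI Gene 100503202 was at 0, 0.0626 and 0 RPKM in the Cop1 libraries and at 4, 3.32, 4.44 and 3.28 RPKM in the Etv1/4/5 libraries (log2 fold change 3.03). For Rec8, Gm11942 and Etv4, as for Tacr3, the Etv1/4/5 libraries lay above both other groups: the controls held 1.65, 1.94 and 1.34 RPKM of Rec8 and 0.44, 0.156 and 0.372 RPKM of Gm11942. Nptx2, a secreted neuronal pentraxin gene, rose from 1.38, 1.08 and 0.993 RPKM to 3.64, 3.07, 5.11 and 4.96 RPKM (log2 fold change 1.49 ± 0.17, adjusted p = 0.00092), and Cib3, a calcium-binding protein gene, from 0.863, 1.19 and 2.37 RPKM to 5.85, 8.06, 4.97 and 7.42 RPKM (log2 fold change 1.89 ± 0.27, adjusted p = 0.0035). Atp4a, the gastric proton pump gene, was at 0.398, 0.63 and 0.651 RPKM in the Cop1 libraries and at 8.19, 2.63, 2.11 and 2.04 RPKM in the Etv1/4/5 libraries. Atp4a rose by 1.80 ± 0.43 on the log2 scale (adjusted p = 0.031), with Etv1/4/5 replicate 1 far above the others and the call lost without any 1 of 4 libraries (adjusted p from 0.061 to 0.11). Gm11942, NCBI Gene 100503202 and Atp4a passed the low-value filter only through the Etv1/4/5 libraries, where they were high, so their tests depend on that filter.

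Among the falls, Gm15663 and Hunk had the smallest adjusted p. Hunk, a kinase gene of the SNF1 family, was at 5.41, 4.99 and 5.71 RPKM in the Cop1 libraries and at 0.735, 0.791, 0.641 and 0.571 RPKM in the Etv1/4/5 libraries. Hunk fell by 2.31 ± 0.10 on the log2 scale (adjusted p = 1.5e-05), and the controls held 0.555, 0.538 and 0.472 RPKM. Gm15663 was at 21.9, 16.1 and 16.8 RPKM in the Cop1 libraries and at 2.14, 2.55, 2.45 and 2.46 RPKM in the Etv1/4/5 libraries. Gm15663 fell by 2.68 ± 0.11 on the log2 scale (adjusted p = 1.5e-05). Ache, the acetylcholinesterase gene, was at 35.7, 31.5 and 22.8 RPKM in the Cop1 libraries and at 8.54, 7.73, 10.3 and 9.48 RPKM in the Etv1/4/5 libraries. Ache fell by 1.66 ± 0.16 on the log2 scale (adjusted p = 0.00064). Tmtc2, an endoplasmic reticulum mannosyltransferase gene, was at 28.6, 22.9 and 19.2 RPKM in the Cop1 libraries and at 6.46, 7.04, 7.15 and 6.88 RPKM in the Etv1/4/5 libraries. Tmtc2 fell by 1.69 ± 0.12 on the log2 scale (adjusted p = 0.00013). Ros1, a receptor tyrosine kinase gene, was at 1.1, 1.21 and 1.1 RPKM in the Cop1 libraries and at 0.133, 0.081, 0.0766 and 0.0458 RPKM in the Etv1/4/5 libraries. Ros1 fell by 1.49 ± 0.13 on the log2 scale (adjusted p = 0.00023). For all 5, every Etv1/4/5 library was below every Cop1 library. The rule that named the largest changes required such separation, so for genes named by it this is no separate result. 5730412P04Rik was listed at 0 RPKM in the 3 controls, at 3.01, 2.49 and 2.63 RPKM in the Cop1 libraries and at 0.071, 0, 0.0342 and 0 RPKM in the Etv1/4/5 libraries. Hunk, Ros1 and 5730412P04Rik passed the low-value filter only through the Cop1 libraries, where they were high, so their tests depend on that filter.

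Genes lying next to the targeted loci were looked at because the alleles were bred together on a mixed background. Among the 20 tested genes on each side of Cop1, 14 of 40 were called (35%, beside 18.4% of all genes tested), 10 of them lower. Pappa2, a protease gene that acts on IGF-binding proteins and the first tested gene on one side of Cop1, was at 181, 164 and 170.0 RPKM in the Cop1 libraries and at 61.5, 60.1, 52.3 and 50.9 RPKM in the Etv1/4/5 libraries. Pappa2 fell by 1.60 ± 0.07 on the log2 scale (adjusted p = 1.9e-05). Its Etv1/4/5 values met those of the controls, at 50.3, 68.7 and 68.5 RPKM. Brinp2 (log2 fold change -0.90, adjusted p = 0.0021), Sec16b (-0.67, adjusted p = 0.0012) and Cryzl2 (-0.53, adjusted p = 0.00063) followed on the same side. Sec16b and Cryzl2 were tested in 19 alternatives, but Brinp2 fell under the low-value filter in part of them and was tested in 16. The test of Brinp2, which is 1 of the 10 called lower, therefore depends on that filter. Around Etv4, 9 of 40 were called (22.5%, near the share of all genes), and Meox1, a homeobox gene and the first tested gene on one side of Etv4, was at 8.82, 9.32 and 10.8 RPKM in the Cop1 libraries and at 0.756, 3.49, 1.22 and 3.47 RPKM in the Etv1/4/5 libraries. Meox1 fell by 2.06 ± 0.45 on the log2 scale (adjusted p = 0.025). The controls held 9.81, 8.65 and 8.29 RPKM of Meox1 and overlapped the Cop1 libraries, and all 4 libraries labelled with the Etv4 knockout lay below both groups. The Meox1 call was lost without any 1 of 4 libraries (adjusted p from 0.061 to 0.081). Around Etv1, 6 of 40 were called (15%), and around Etv5, 10 of 40 (25%), beside the same 18.4%. For Meox1, loss of the ETV factors and the altered Etv4 region come together by label and cannot be told apart. The floxed Cop1 alleles are shared by both groups, and no cause was tested for the genes beside them.

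Some genes whose Cop1 libraries lay far from the controls were not called with the added deletion. Aqp3, which encodes an aquaglyceroporin, was at 0, 0.118 and 0.125 RPKM in the controls, at 12.6, 17.1 and 13.3 RPKM in the Cop1 libraries and at 19.1, 14, 23.8 and 17.5 RPKM in the Etv1/4/5 libraries (log2 fold change 0.35 ± 0.18, adjusted p = 0.23). Rnf152, a ubiquitin ligase gene, was at 9, 8.78 and 8.09 RPKM in the Cop1 libraries and at 10.8, 7.37, 10.3 and 7.89 RPKM in the Etv1/4/5 libraries. Rnf152 was not called (log2 fold change 0.05 ± 0.13, adjusted p = 0.81), and the controls held 0.395, 0.352 and 0.29 RPKM. Tm4sf20, a tetraspan membrane protein gene, was at 6.28, 6.89 and 3.91 RPKM in the Cop1 libraries and at 4.47, 2.45, 3.8 and 2.35 RPKM in the Etv1/4/5 libraries. Tm4sf20 was not called (log2 fold change -0.72 ± 0.26, adjusted p = 0.094), and the controls held 0.0649, 0.0459 and 0.146 RPKM. Tm4sf20 was called lower under 3 of 19 alternatives: equal total RPKM (adjusted p = 0.043), library weights (adjusted p = 0.025) and without Cop1 replicate 3 (adjusted p = 0.046), and Aqp3 and Rnf152 under 0 of 19. For all 3 genes the groups compared overlapped, and every Etv1/4/5 library lay well above every control.

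C1qa stood apart from its partner chains. It was at 83.3, 91.2 and 112 RPKM in the Cop1 libraries and at 34.3, 37.2, 35.8 and 36.8 RPKM in the Etv1/4/5 libraries. C1qa fell by 1.38 ± 0.09 on the log2 scale (adjusted p = 9.4e-05), while C1qb (log2 fold change -0.12, adjusted p = 0.57) and C1qc (-0.15, adjusted p = 0.56), the other chains of complement C1q, were not called. C1qa was the only one of 16 tested immune markers called, and the summed level of the immune list was 366 to 497 RPKM in the Cop1 libraries and 359 to 659 RPKM in the Etv1/4/5 libraries. The called share was 6.25%, beside 18.4% of all genes tested. Of 28 tested endothelial and stromal markers, 1 was called: Kdr, a VEGF receptor gene, fell from 32.2, 29.9 and 27.9 RPKM to 24.8, 24.4, 21.9 and 25.5 RPKM (log2 fold change -0.31 ± 0.07, adjusted p = 0.014), and this call was lost without Cop1 replicate 2 (adjusted p = 0.051). Kdr made up 3.57% of these markers tested, beside 18.4% called among all genes. Without Cop1 replicate 3, 3 of these endothelial and stromal markers were called lower.

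To relate the comparison to Cop1 loss without shared libraries, genes were taken from set 2, where 4 Cop1 deletion libraries were compared with 4 controls. There 454 of 13584 genes were called, 3.34%, of which 282 were higher after Cop1 deletion, 2.08%, and 172 lower, 1.27%. That count rested on single libraries: it was 112 to 300 without control replicate 1, 2 or 3 or without Cop1 replicate 1, 3 or 4. Of the 282 genes higher after Cop1 deletion in set 2, 259 were tested in set 1, and 84 of them (32.4%) were lower in the Etv1/4/5 libraries against 28 higher, beside 7.73% lower among all genes tested. Their median log2 fold change in set 1 was -0.14. The 28 include Ugt1a1, Ugt1a2, Ugt1a5, Ugt1a6a, Ugt1a6b, Ugt1a7c, Ugt1a9 and Ugt1a10. These had nearly equal log2 fold changes (0.33 to 0.35), so their reads may be shared and their calls are not separate. The 84 include the CreERT2 marker Esr1, and Spp1 with NCBI Gene 100503439, which may share its reads. Of the 172 genes lower after Cop1 deletion in set 2, 166 were tested in set 1, and 83 (50%) were higher in the Etv1/4/5 libraries against 4 lower, beside 10.7% higher among all genes tested. Their median was 0.34, against 0.00 over all genes. Over the alternatives in choosing the list or in testing set 1, the first share ran from 24.8% to 55.0% and the second from 38.0% to 59.0%. The share among all genes moved with it: beside 24.8% (without set 1 Cop1 replicate 2) 4.37% of all genes were lower, beside 55.0% (equal total RPKM) 29.3% were lower, and beside 38.0% (6 groups in the fit) 3.9% were higher. Slc2a2, for example, was at 85.8, 77.2, 56.6 and 36.4 RPKM in the set 2 controls and at 5.21, 4.61, 4.66 and 7.82 RPKM in the set 2 Cop1 libraries (log2 fold change -3.37, adjusted p = 0.001). Chgb was at 1587, 1338, 1508 and 1384 RPKM in the set 2 controls and at 3191, 3696, 3859.8 and 2623 RPKM in the set 2 Cop1 libraries (log2 fold change 1.19, adjusted p = 0.0054). The smallest adjusted p among genes called in opposite directions in these 2 comparisons included Glul, Vipr1 and Olfm4 on the rising side in set 1 and Tmem255a and Tspan15 on the falling side. Olfm4, a secreted glycoprotein gene, was at 5.83, 6.43 and 6.53 RPKM in the Cop1 libraries and at 11.7, 11.3, 11.4 and 10.9 RPKM in the Etv1/4/5 libraries. Olfm4 rose by 0.81 ± 0.05 on the log2 scale (adjusted p = 9.4e-05). Tspan15, a tetraspanin gene, was at 32.8, 34.6 and 37 RPKM in the Cop1 libraries and at 19.1, 19.2, 18.2 and 18.7 RPKM in the Etv1/4/5 libraries. Tspan15 fell by 0.87 ± 0.05 on the log2 scale (adjusted p = 4.7e-05), and Tmem255a, a membrane protein gene, was at 28.1, 26.9 and 32.1 RPKM in the Cop1 libraries and at 11.5, 11.6, 12.8 and 12.3 RPKM in the Etv1/4/5 libraries. Tmem255a fell by 1.23 ± 0.07 on the log2 scale (adjusted p = 4.7e-05).

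**Figure D5:**
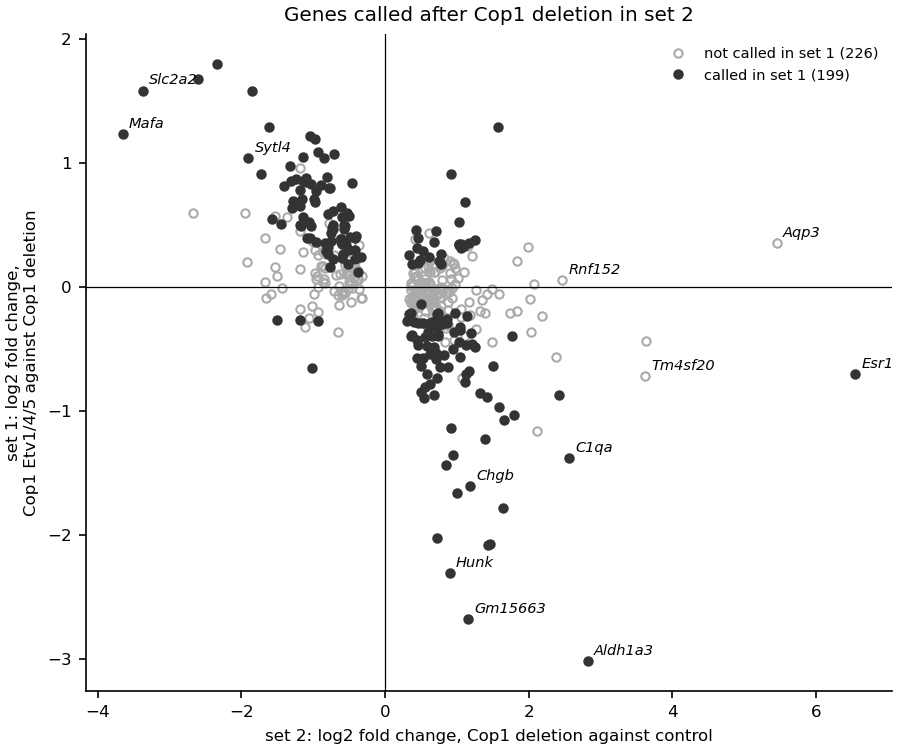
Each point is a gene called after Cop1 deletion in set 2 and tested in set 1 (425 genes); the x axis is its log2 fold change in set 2 and the y axis that of the added Etv1/4/5 deletion in set 1, from separate libraries. Filled points are called in set 1 (199); 84 of the 259 genes to the right are lower and 83 of the 166 to the left are higher, while Aqp3, Rnf152 and Tm4sf20 to the right stay near 0 or uncalled.

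In set 2 an added deletion of Etv4 and Etv5 was compared with Cop1 deletion, with genotype Etv4ko/+ and Etv5fl/fl and the Etv1 genes intact, so 1 allele of Etv4 was left. The same test called 1 of 13499 genes there, 0.00741%, with 1935 at an unadjusted p under 0.05. The called gene, Gm15638, was also higher in set 1 (log2 fold change 1.499 ± 0.26, adjusted p = 0.006). Gm15638 fell under the low-value filter in part of the set 1 alternatives and was tested in 15, so its set 1 test depends on that filter. It overlaps the genes Phldb2 and Plcxd2, so reads may be shared. Of the 2410 genes called in set 1 and tested in set 2, 54.5% lay on the same side of 0 in the other set. The Pearson correlation of the 2 log2 fold changes across 12914 genes was 0.10 and the Spearman correlation 0.017, as a description across genes, which are not independent. Leaving out set 2 Cop1 replicates 2 and 3 together gave 20 calls.

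The difference between the sets was tested directly, as the change in set 1 minus that in set 2 over 15 libraries. It was called for 805 of 14326 genes, 5.62%. This test and the set 1 comparison share 7 libraries, so their calls are not independent. The count was 462 to 521 without any 1 of the 3 set 1 Cop1 libraries or of Etv4/5 replicates 2, 3 and 4, 1544 without set 2 Cop1 replicate 2, and 2115 without set 2 Cop1 replicates 2 and 3 together. Hunk had a difference of -2.15 ± 0.14, adjusted p = 8.9e-06, with 1.91, 2.09, 2.09 and 1.57 RPKM in the set 2 Cop1 libraries and 1.53, 1.48, 1.83 and 1.75 RPKM in the set 2 Etv4/5 libraries. Bckdhb (-1.80 ± 0.17, adjusted p = 0.00014), Ros1 (-1.66 ± 0.15, adjusted p = 9.4e-05) and Ppp1r10 (-0.91 ± 0.09, adjusted p = 0.0002) had negative differences as well. Lmna (1.19 ± 0.11, adjusted p = 0.00014), Srf (0.92 ± 0.09, adjusted p = 0.00014), Tle3 (0.90 ± 0.09, adjusted p = 0.00018) and Itpkc (0.93 ± 0.08, adjusted p = 6.2e-05) had positive ones. Cldn4, Krt8 and Krt18 had log2 fold changes of opposite sign in the 2 sets: the difference was 2.52 ± 0.37, adjusted p = 0.0026 for Cldn4, which was at 64.1, 120.4, 201 and 126 RPKM in the set 2 Cop1 libraries and at 66.1, 83.5, 61.3 and 77.6 RPKM in the set 2 Etv4/5 libraries. The difference was not called for Slc30a8 (0.10 ± 0.28, adjusted p = 0.85), Slc2a2 (0.45 ± 0.31, adjusted p = 0.4) or Aldh1a3 (-1.94 ± 0.64, adjusted p = 0.093). Set, Etv1 genotype and Etv4 dose change together between these comparisons and cannot be told apart.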

How the data were processed

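RNA sequencing values of cultured, handpicked mouse islets were analysed, deposited by the authors as RPKM per gene. The submitters' processing notes name mm9 as the genome build. Neither aligner nor read counter nor annotation is given in the sources used here. Of 24 library columns over 28059 genes (NCBI Gene numbers), 2 could not be placed and were not used: the number of 1 stands in 2 titles, and that of the other begins no title. Symbols came from the GRCm38.p6 RefSeq annotation for 24998 genes, and promoter sequences from RefSeq on the same build. RPKM keeps no read totals, so no count model or counting interval was used; relative depth was read from the steps between low values.

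Values were taken as log2(RPKM + 0.5), which understates changes of genes below a few RPKM, and fitted on the 7 libraries with limma 3.58.1 (trend and robust variance) in R 4.3.3 with the data.table package, version 1.17.8. Fold changes are given as log2 ± SE. Genes under 1 RPKM in every library of 1 group could enter the test only through the other group. Adjusted p-values are Benjamini-Hochberg over all genes tested, 2-sided, with a threshold of 0.05; "called" means below it. The other comparisons used the same model: set 2 in the 8 libraries of each comparison, and the difference between sets in 15 libraries. On simulated data with the same genes and group sizes, the test called 93% of 2-fold changes, 73% of 1.5-fold changes and 0.0446% of genes left unchanged. There the noise was drawn separately for each gene, with no shift shared by a library, and 100 genes were altered for each size of change. These rates therefore do not cover shifts of scaling or differences between libraries that many genes share.

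The members and the 27 lists were chosen with earlier results of these data known. Named by rule were the targeted genes and Esr1, up to 5 called members of each list (or the 2 most abundant where none was called), the 20 largest non-overlapping changes each way, the 10 strongest differences between sets and the 10 strongest genes called opposite to Cop1 deletion in set 2. Other genes named, such as Ins1, Ins2, Mafa, Pdx1, Aqp3, Rnf152 and Tm4sf20, and members given as not called, were chosen after their values were seen. Other settings tried were the pseudocount, the low-value filter, scaling, the groups in the fit, variance settings, Xist as a covariate and leaving out each library. Single values of some genes are not reported here.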

Additional observations from a re-analysis of the deposited data

Results flagged for a closer look

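In 6 of 142 named genes, 1 of the 4 Etv1/4/5 libraries stood apart from the other 3 by Dixon's 95% criterion for 4 values, which chance passes in about 1 in 20 groups. These were 8.19 RPKM for Atp4a, 6.46 RPKM for Fgfr1, 39.3 RPKM for NCBI Gene 100503439 and 14.8 RPKM for Spred2 as the highest values, 2.41 RPKM for Gm5409 also as the highest, and 102 RPKM for Dnajc3 as the lowest.

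The effect of the added deletion was compared between set 1 (Etv1, Etv4 and Etv5) and set 2 (Etv4 and Etv5, with 1 Etv4 allele left). By limma's test of the difference itself over 15 libraries, 62 of the 142 named genes were called, beside 5.62% of all genes tested. Named genes were picked mainly by their set 1 calls, and 10 by this test itself, so the choice favoured a high count. The values are set 1 minus set 2 on the log2 scale. Among β-cell, granule and hormone genes the difference was -0.78 for Chgb, -0.95 for Rab3b, 1.44 for Mlph, -0.56 for Abcc8, 1.13 for Sst, -1.20 for Cartpt, 1.41 for Nnat, -2.13 for Gast, -1.04 for Neurog3, 1.74 for Cox6a2, -1.11 for Me3, -0.78 for Rgs9 and -0.73 for Gprc5b. Among ETS, ERK, AP-1 and stress genes the difference was 1.62 for Etv4, 0.82 for Ets2, 0.53 for Erf, 1.13 for Elf3, -0.79 for Spry1, 0.97 for Fosl1, 0.90 for Maff, 0.82 for Jund, 0.77 for Myc, 0.92 for Srf, 1.25 for Cdkn1a, 0.87 for Gadd45a, -0.53 for Dnajb4 and 0.50 for Mcm4. Among junction, keratin, lamina and lipid genes the difference was 0.75 for Cldn1, 2.52 for Cldn4, 0.85 for Cldn7, 2.08 for Krt8, 1.38 for Krt18, 1.19 for Lmna, 0.54 for Msmo1 and -0.85 for Elovl6. Among the other genes it was above 0 as follows: 1.28 for 1700030C10Rik, 1.35 for 2200002J24Rik, 0.60 for Glul, 0.93 for Itpkc, 2.78 for NCBI Gene 100503202, 1.32 for NCBI Gene 100862391, 2.47 for Rec8, 1.53 for Rprml, 2.56 for Snord32a, 1.33 for Spc25 and 0.90 for Tle3. It was below 0 as follows: -1.94 for 4933432K03Rik, -2.04 for 5730412P04Rik, -1.09 for Ache, -1.80 for Bckdhb, -1.18 for C1qa, -1.82 for Car8, -2.05 for Cntnap5b, -1.32 for Esr1, -2.35 for Gm15663, -2.15 for Hunk, -1.82 for Pappa2, -0.91 for Ppp1r10, -1.66 for Ros1, -1.91 for Shisa2, -1.63 for Tmtc2 and -0.44 for Tspan15. Etv4 went against the label of the set 1 libraries, and Esr1 marks the CreERT2 transgene. Sets, Etv1 genotype and Etv4 dose change together and cannot be told apart.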

How the results depend on the processing

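Counts of called genes moved with scaling, fit and libraries, and of the 142 named genes 3 changed sign, all of them not called. For the added Etv1/4/5 deletion (2516 called, 1461 higher, 1055 lower), equal total RPKM gave 4657, 662 and 3995. Leaving Ins1 and Ins2 out of that total gave 1645 calls, 808 higher. The fit over 6 groups gave 931, 532 and 399, and a 2-fold minimum gave 142. Leaving out single libraries gave 1503 to 1994 calls, 911 to 1188 higher and 592 to 865 lower, with Cop1 replicate 2 at the low end. The difference between sets (805) was 512 without Ins1 and Ins2 in the total, 3687 with library weights, 462 to 1544 without single libraries and 2115 without set 2 Cop1 replicates 2 and 3, an alternative chosen after seeing the data. That alternative gave 20 calls for the Etv4/5 deletion of set 2 (1), which had 0 to 8 without single libraries. For Cop1 deletion in set 2 (454), it gave 112, equal total RPKM gave 300 and leaving out single libraries 112 to 609. The cause of these shifts was not tested. Of the 133 named genes called, 78 kept their call under every alternative in which they were tested, and 55 lost it under at least 1. Some genes fell under the filter in part of the 19 alternatives, so that Hunk was tested in 16 and Etv4 in 15. Of the 9 not called, 0 gained a call by limma where they were tested. No paired analysis was possible because the labels give no replicate numbers. Depth limits genes near 1 RPKM, where single reads move the value.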
